A study of Saccharomyces cerevisiae with 24 samples.

Results

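The genes described here are 10 budding yeast genes of the mitochondrial machinery that builds iron-sulfur clusters: ISU1, ISU2, NFS1, ISA1, ISA2, YFH1, JAC1, SSQ1, GRX5 and NFU1. They were picked by name from the 5656 genes that had a probe set of their own, and where a gene had more than 1 probe set, the one brightest on average over all arrays was taken. All of them were chosen with earlier results of these data known, so their counts and p-values are descriptions and not independent tests. Of the 10 genes, 9 had a mean signal above the filter and were tested among 5171 genes, and SSQ1 lay below it. Only GRX5 had a second probe set.

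Transcripts were measured on 24 one-colour Affymetrix Yeast Genome S98 arrays of cultures of BY4730, a haploid laboratory strain that lacks LEU2, MET17 and URA3, and this genotype is shared by every group. Cultures were exposed for 120 min. Bleomycin, which breaks DNA strands, was given at 0.15 U/ml in replicates 1 and 3 and at 0.1 U/ml in replicate 2. Methyl methanesulfonate (MMS), an alkylating agent that adds methyl groups to DNA, was given at 0.12% in replicates 1 and 2 and at 0.14% in replicate 3. Cisplatin, which crosslinks DNA, was given at 500 and 650 ug in its 2 replicates, with no volume stated. NaCl was given at 10%, 8% and 9% in its 3 replicates, and ethanol at 15% in both of its replicates. The 11 Control arrays came from mock-treated cultures, in DMSO for bleomycin, MMS and cisplatin and in plain medium for NaCl and ethanol, and the labels do not say which Control array had which. The doses are those of the titles, and the protocol text states other amounts for cisplatin and NaCl. By the titles, 12 of the 13 treated arrays share their day with a Control array, and ethanol replicate 1 was assumed to share the day of Control replicate 6. Since no label says that arrays came from separate cultures, p-values measure only the spread between these arrays. In whole cultures, a change in the number of cells that hold a transcript and a change in its level per cell cannot be told apart.

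As background, iron-sulfur clusters are protein cofactors that yeast assembles in the mitochondrial matrix, an essential process. The cysteine desulfurase Nfs1 releases sulfur, and the cluster forms on the scaffold proteins Isu1 and Isu2 with the help of frataxin, Yfh1. The chaperones Ssq1 and Jac1 then pass it to the glutaredoxin Grx5, and Isa1, Isa2 and Nfu1 act late, on clusters meant for particular enzymes such as aconitase and lipoate synthase.

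Signals are on the log2 scale after quantile normalization, so 1 unit is a 2-fold difference, and levels of different probe sets were not compared. The MATa genes MFA1, MFA2 and STE2 had mean Control signals of 12.39, 12.07 and 7.51. The MATalpha genes STE3 and MF(ALPHA)1 had 3.79 and 5.18. URA3 and MET17, absent from the strain, had mean Control signals of 3.45 and 3.91, while the 3 LEU2 probe sets had 5.43 to 5.65. RNA state differed between arrays: the control probe set at the 5′ end of ACT1, the actin gene, read 8.35 to 8.83 on the MMS arrays, 6.03 to 6.23 on the NaCl arrays, 4.53 to 4.67 on the ethanol arrays and 4.76 to 10.65 on the Control arrays. It read under 7.5 on 13 arrays, called low here, and above it on 11, called high. All 3 MMS arrays were high, while the Control arrays of the 3 MMS days were all low. The ACT1 3′ probe set read 7.98 and 8.21 on NaCl replicates 2 and 3 and 9.37 on Control replicate 11, and 10 or more on the other 21 arrays.

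**Figure D1:**
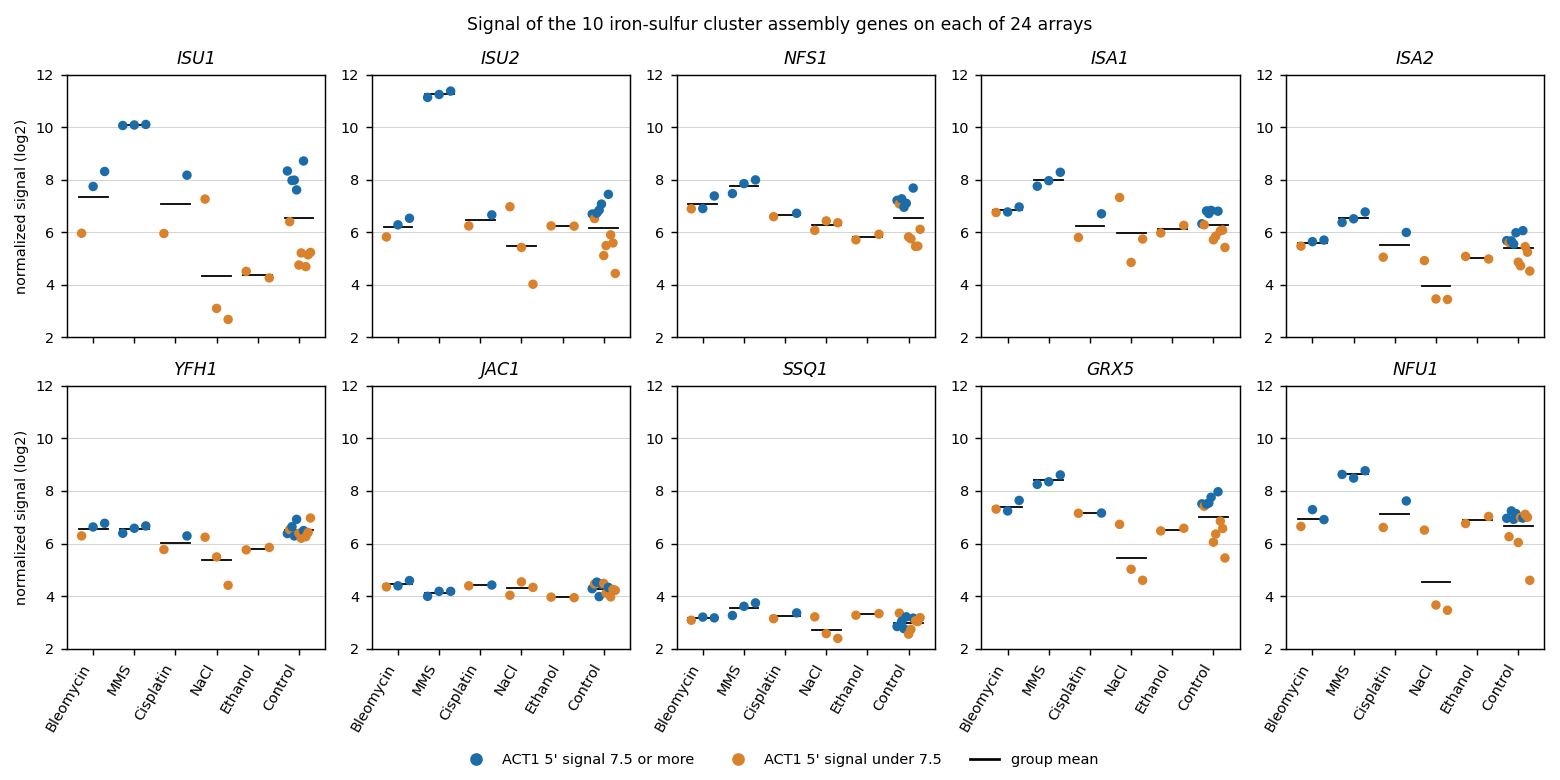
Normalized signal (log2, vertical axis) of each of the 10 genes on each of the 24 arrays, by group along the horizontal axis. Each point is 1 array, the bar is the group mean, and the colour gives the ACT1 5′ signal. ISU1 lay at 10.06 to 10.10 and ISU2 at 11.13 to 11.37 on the 3 MMS arrays, above all 11 Control arrays, and JAC1 spanned 0.66 over all 24.

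The scaffold genes ISU1 (YPL135W) and ISU2 (YOR226C) stood far above Control after MMS. ISU1 had signals of 10.06, 10.08 and 10.10 on the MMS arrays, against 5.14, 5.23 and 4.69 on the Control arrays of the same days. ISU2 had 11.13, 11.24 and 11.37 on the MMS arrays, against 5.59, 4.43 and 5.90 on those Control arrays. Both genes were higher on each MMS array than on any of the 11 Control arrays, which reached 8.71 for ISU1 and 7.44 for ISU2. With day as a block, the MMS change was 5.06 ± 1.01 (SE) for ISU1 and 5.94 ± 0.485 (SE) for ISU2, which are 33.3-fold and 61.5-fold. By size of rise in this fit, these were the genes of rank 16 and rank 2 among the 5171. With the ACT1 5′ class, high or low, as the block in place of day, ISU1 was at rank 173 and ISU2 at rank 5. Among high ACT1 5′ arrays only, ISU1 was at rank 304 and ISU2 at rank 7. These values had been seen when the genes were chosen, so they are a description and carry no test.

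NFS1 (YCL017C), the sulfur donor, also rose with MMS. Its signals were 7.47, 7.85 and 7.99 on the MMS arrays, against 5.47, 6.11 and 5.46 on the same-day Control arrays. The MMS arrays overlapped the Control range, which reached 7.68 on Control replicate 8. The change was 2.09 ± 0.222 (limma, SE; adjusted p = 1.83e-05 over the genes tested), and it was positive on 3 of 3 days.

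GRX5 (YPL059W), the monothiol glutaredoxin that relays clusters from the scaffold, had signals of 8.25, 8.35 and 8.61 on the MMS arrays, against 6.57, 5.45 and 6.85 on the same-day Control arrays. Each MMS array was above all 11 Control arrays, the highest of which was 7.97. The change was 2.11 ± 0.391 (limma, SE; adjusted p = 0.000929). Its second probe set did not show this: it read 4.99, 4.92 and 4.96 on the MMS arrays, against 4.77, 5.44 and 5.20 on the Control arrays of those days, a change of -0.18 ± 0.365 (SE; limma adjusted p = 0.697). The GRX5 result with MMS thus holds for 1 of its 2 probe sets.

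Of the late-acting genes, ISA1 (YLL027W) and ISA2 (YPR067W) encode partners in the assembly of clusters for aconitase-type and radical enzymes. ISA1 had signals of 7.75, 7.96 and 8.28 on the MMS arrays, against 6.08, 5.42 and 6.05 on the same-day Control arrays. ISA2 had 6.37, 6.51 and 6.77 on the MMS arrays, against 5.24, 4.52 and 5.45 on the same-day Control arrays. For both genes all MMS arrays were above all 11 Control arrays, and the rises were 2.15 ± 0.437 for ISA1 and 1.48 ± 0.313 for ISA2 (limma, SE; adjusted p = 0.00174 and 0.00218). NFU1 (YKL040C), which helps deliver clusters to a few mitochondrial enzymes, had 8.63, 8.49 and 8.77 on the MMS arrays, against 7.00, 4.60 and 7.11 on the same-day Control arrays. The day with the low value of 4.60, on Control replicate 11, gave the widest NFU1 difference, 3.89, beside 1.63 and 1.67 on the other days. It also gave the widest MMS differences of ISU2 (6.81), GRX5 (2.90), ISA1 (2.55) and ISA2 (1.99). For ISU1 (4.85) and NFS1 (1.74) it gave the narrowest. The NFU1 rise was 2.39 ± 0.69 (limma, SE; adjusted p = 0.0126). Without Control replicate 11 or MMS replicate 2 the NFU1 rise no longer passed the test, with an adjusted p of up to 0.127 and a change of 1.65 at the least. The ACT1 3′ signal of Control replicate 11 was 2.01 below that of MMS replicate 2.

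YFH1 (YDL120W), the yeast frataxin, and JAC1 (YGL018C), the J-protein that brings the scaffold to Ssq1, did not pass the test with MMS. YFH1 had signals of 6.39, 6.58 and 6.67 on the MMS arrays, against 6.42, 6.97 and 6.26 on the same-day Control arrays, and the estimated change was 0.00 with a 95% interval of -0.72 to 0.72. JAC1 had 3.99, 4.18 and 4.18 on the MMS arrays, against 4.25, 4.22 and 3.97 on the same-day Control arrays, with an interval of -0.45 to 0.39 around -0.03. Both genes lay within the Control range on all MMS arrays. JAC1 was the tested gene nearest the filter, with a mean signal of 4.27 against the limit of 3.786. SSQ1 (YLR369W), the specialised mitochondrial Hsp70, fell short of it with a mean of 3.09. Its signals were 3.26, 3.61 and 3.74 on the MMS arrays, against 3.03, 3.18 and 3.06 on the same-day Control arrays. SSQ1 was under the limit on all 24 arrays, its highest signal being 3.74, so no change is given for it.

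Counted together, 7 of the 9 genes tested were higher after MMS and none was lower. Of all 5171 genes, 50.5% changed with MMS, 33.5% higher and 17% lower, so a rise was common. The median change was 2.11 over the 9 genes and 0.29 over all genes tested. These counts include ISU1 and ISU2, whose MMS values were known when the genes were chosen. Without them 5 of 7 genes were higher, with a median of 2.09. Those 7 were also chosen with earlier results of these data known, so this count is no independent test. All MMS arrays were above all 11 Control arrays for 6 of the 9, GRX5, ISA1, ISA2, ISU1, ISU2 and NFU1, as they were for 28.6% of all genes.

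**Figure D2:**
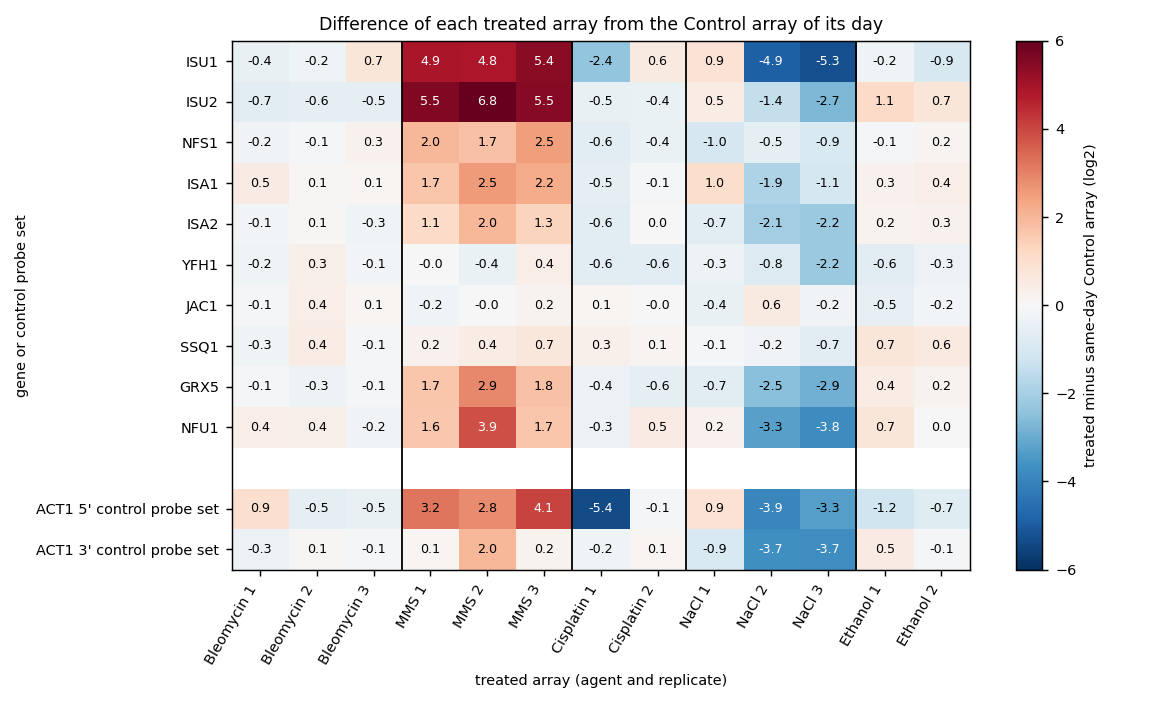
Difference in log2 signal between each of the 13 treated arrays and the Control array of its day (columns, by agent), for the 10 genes and for the 5′ and 3′ control probe sets of ACT1 (rows). The MMS columns hold the largest positive differences of ISU1 and ISU2, up to 6.81, and the ACT1 5′ row there reads 3.21, 2.82 and 4.07. NaCl replicates 2 and 3 stand apart from NaCl replicate 1 in ISU1, NFU1 and both ACT1 rows.

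The ACT1 5′ signal moved with several of these genes among the Control arrays themselves. ISU1 had a mean of 8.12 (range 7.61 to 8.71) on the 5 high Control arrays and 5.24 (4.69 to 6.40) on the 6 low ones, with no overlap. ISU2 had 6.95 (6.69 to 7.44) on the high Control arrays and 5.51 (4.43 to 6.52) on the low ones, again with no overlap. Mean signals on high and low Control arrays were 7.24 and 5.95 for NFS1, 7.66 and 6.45 for GRX5, 6.70 and 5.90 for ISA1, 5.79 and 5.07 for ISA2, and 7.05 and 6.34 for NFU1. The means of YFH1, 6.54 and 6.46, and of JAC1, 4.32 and 4.25, were close in the 2 classes. These classes were drawn after the data were seen.

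The MMS changes were therefore also taken among high arrays only, the 3 MMS arrays beside the 5 high Control arrays, with no term for day since the days did not coincide. By the titles the high Control arrays date from April and October and the MMS arrays from July and August. In this fit MMS and date cannot be told apart. There ISU2 was 4.24 ± 0.175 higher and ISU1 1.81 ± 0.206 higher (SE). The other rises were smaller: 1.64 ± 0.14 for NFU1, 1.41 ± 0.163 for ISA1, 0.85 ± 0.154 for ISA2, 0.76 ± 0.155 for GRX5 and 0.57 ± 0.189 for NFS1 (limma, SE; largest adjusted p 0.0137). The same 7 genes were called in this fit, where 39.3% of all genes were called higher and 70.6% changed either way. With the ACT1 5′ class as a block over all 24 arrays, 5 of the 9 were called, beside 24.7% of all genes called higher. In that fit the changes of NFS1, 0.71 ± 0.312, and of GRX5, 0.93 ± 0.404, did not pass (limma adjusted p = 0.0752 and 0.0715). ISU2 was 4.45 ± 0.453 and ISU1 2.08 ± 0.628 higher in the class fit. With the ACT1 5′ signal as a covariate beside day, 2 of the 9 passed, ISU2 and NFS1. Of all genes, 25.3% passed in that fit, so 2 of 9 was near the background. The covariate fit put ISU2 at 5.24 ± 0.66 and ISU1 at 2.19 ± 0.934 (SE). Without ISU1 and ISU2, 5 of 7 genes were called among high arrays, 3 of 7 in the class fit and 1 of 7 in the covariate fit.

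**Figure D3:**
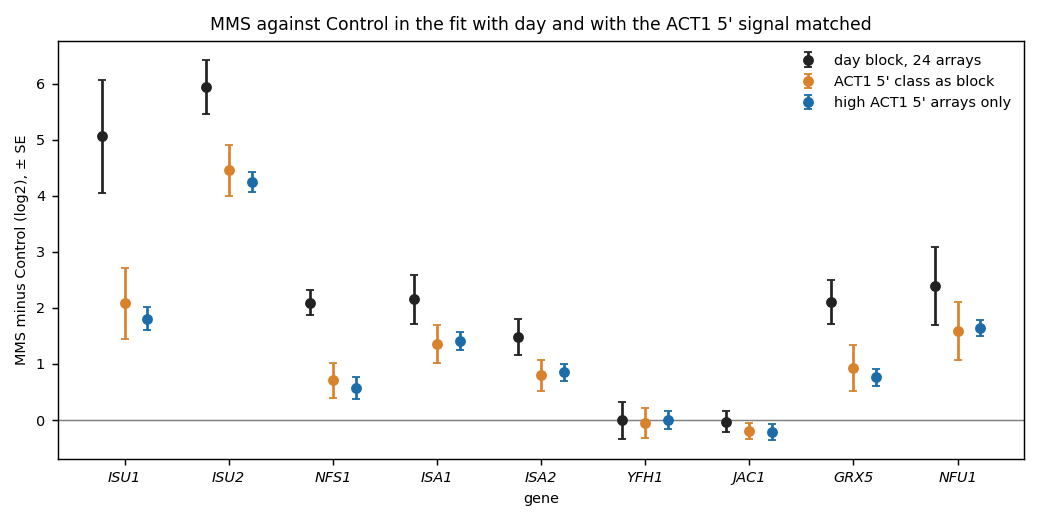
MMS minus Control (log2, vertical axis; point and SE) for the 9 genes tested (horizontal axis), in the fit with day as a block, with the ACT1 5′ class as a block, and among high ACT1 5′ arrays only. ISU2 stays above 4 in all 3, ISU1 reads 5.06, 2.08 and 1.81, and YFH1 and JAC1 stay near 0.

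After NaCl 6 of the 9 genes were lower than in Control, and the 3 NaCl arrays did not behave alike. ISU1 had signals of 7.26, 3.10 and 2.68 on the NaCl arrays, against 6.40, 7.98 and 7.97 on the same-day Control arrays, so replicate 1 was above its Control array and replicates 2 and 3 were far below theirs. The fitted change was -2.99 ± 0.981 (limma, SE; adjusted p = 0.0251). NFU1 had the same pattern, with 6.51, 3.66 and 3.46 on the NaCl arrays, against 6.26, 6.92 and 7.24 on the same-day Control arrays. Its change was -2.32 ± 0.668 (limma adjusted p = 0.0148). On replicates 2 and 3 both genes were under the filter limit of 3.786, so the sizes of their falls are uncertain. ISU2, with differences of 0.45, -1.43 and -2.71 across the 3 days, had a change of -1.17 ± 0.469 that did not pass (limma adjusted p = 0.0538).

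Lower signals on all 3 NaCl days were seen for NFS1, ISA2, GRX5 and YFH1. NFS1 had 6.07, 6.43 and 6.36 on the NaCl arrays, against 7.08, 6.95 and 7.27 on the same-day Control arrays, and fell by 0.77 (SE 0.215; limma adjusted p = 0.0131). ISA2 had 4.92, 3.46 and 3.44 on the NaCl arrays, against 5.61, 5.55 and 5.67 on the same-day Control arrays, and fell by 1.71 (SE 0.303; limma adjusted p = 0.00214). The lowest 2 NaCl values of ISA2 lay below all Control arrays, the lowest of which was 4.52, and the value of replicate 1 did not. Those 2 values were also under the filter limit of 3.786, so the size of the ISA2 fall is uncertain.

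GRX5 had 6.73, 5.02 and 4.60 on the NaCl arrays, against 7.42, 7.54 and 7.5 on the same-day Control arrays, and fell by 1.99 (SE 0.379; limma adjusted p = 0.00286). Its second probe set went the opposite way, with 5.08, 6.79 and 6.85 on the NaCl arrays, against 4.29, 4.51 and 4.34 on the same-day Control arrays, a change of 1.85 ± 0.353 (SE; limma adjusted p = 0.00293). The direction of GRX5 with NaCl therefore depended on the probe set. YFH1 had 6.24, 5.49 and 4.41 on the NaCl arrays, against 6.53, 6.29 and 6.64 on the same-day Control arrays, and fell by 1.10 (SE 0.319; limma adjusted p = 0.0152). ISA1, with differences of 1.04, -1.86 and -1.07, and JAC1, with -0.43, 0.56 and -0.20, did not pass the test (limma adjusted p = 0.213 and 0.958).

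The 6 genes lower after NaCl, with none higher, compare with a background in which 37.6% of all genes were lower and 51.7% changed. The median change was -1.17 over the 9 genes and -0.45 over all genes. The 2 NaCl arrays with the lowest values of ISU1, NFU1, GRX5 and YFH1 were those with low ACT1 3′ signals, which differed from their same-day Control arrays by -3.69 and -3.72. With those arrays and Control replicate 11 left aside, only NaCl replicate 1 remained, and 2 of the 9 genes were called, where 7.08% of all genes were higher and 9.71% lower. These were NFS1, at -0.95 ± 0.275, and ISA1, at 0.93 ± 0.281 (limma, SE; adjusted p = 0.0337 and 0.0388). ISU1 was then at 1.01 and NFU1 at 0.10, so both changed sign, and neither passed. This fit takes the lone NaCl array to vary like the other groups. Without Control replicate 3 or NaCl replicate 3 the count called was 2, without NaCl replicate 2 it was 3, and without NaCl replicate 1 it was 8. The share of all genes called moved with it, to 15.8% without Control replicate 3 or NaCl replicate 3, 17% without NaCl replicate 2 and 71.8% without NaCl replicate 1. ISU1, NFU1 and YFH1 each lost their call without Control replicate 3, NaCl replicate 2 or NaCl replicate 3, ISU1 also without Control replicate 4, and NFS1 without Control replicate 3 or NaCl replicate 3. With no day term ISU1 was at -2.20 and NFS1 at -0.25, and with the ACT1 5′ class as a block they were at -0.99 and 0.19. Neither gene passed in those fits, and the other 4 genes did. ISU1, NFS1, NFU1 and YFH1 did not pass with the ACT1 5′ signal as a covariate. With only the NaCl and Control arrays in the fit, none of the 6 passed, and 0% of all genes did.

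With bleomycin and cisplatin, the other DNA-damaging agents, none of the 9 genes passed limma's test. For bleomycin 1.86% of all genes did, and 0 of the 9 genes had an unadjusted p under 0.05. ISU2 had 5.82, 6.28 and 6.53 on the bleomycin arrays, against 6.52, 6.84 and 7.07 on the same-day Control arrays, so its differences were negative on 3 of 3 days. The fitted ISU2 change was -0.85 ± 0.461 (SE; limma adjusted p = 0.594), with a 95% interval of -1.85 to 0.16. With the low ACT1 3′ arrays left aside the ISU2 value of -0.63 passed (limma adjusted p = 0.0201), where 10.9% of all genes did. ISU1 had 5.96, 7.74 and 8.31 on the bleomycin arrays, against 6.40, 7.98 and 7.61 on the same-day Control arrays, and differed in sign between days.

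For cisplatin 0.464% of all genes passed, and 1 of the 9 genes had an unadjusted p under 0.05: NFS1, which had 6.59 and 6.72 on the cisplatin arrays, against 7.21 and 7.10 on the same-day Control arrays (limma adjusted p = 0.395). ISU1 had 5.95 and 8.17 on the cisplatin arrays, against 8.33 and 7.61 on the same-day Control arrays. The ACT1 5′ signal differed from the same-day Control array by -5.38 on the lower cisplatin array and by -0.13 on the other. The part of RNA state in this ISU1 difference was not tested.

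With ethanol none of the 9 genes passed limma's test, where 5.03% of all genes did, and 0 of the 9 had an unadjusted p under 0.05. ISU2 had 6.24 and 6.23 on the ethanol arrays, against 5.11 and 5.49 on the same-day Control arrays, a change of 0.94 ± 0.594 (SE; limma adjusted p = 0.361). With the low ACT1 3′ arrays left aside this ISU2 change was 0.97 and passed (limma adjusted p = 0.00199), where 42.7% of all genes did. Both ethanol arrays lay below all 11 Control arrays for ISU1, JAC1 and YFH1, as they did for 9.42% of all genes. These values were 4.51 and 4.26 for ISU1, against 4.69 to 8.71 on the Control arrays. They were 5.76 and 5.85 for YFH1, against 6.20 to 6.97 on the Control arrays. For JAC1 they were 3.96 and 3.94, against 3.97 to 4.53 on the Control arrays. From the same-day Control arrays ISU1 differed by -0.24 and -0.95. The ACT1 5′ signals of the ethanol arrays, 4.53 to 4.67, were below the lowest Control signal of 4.76. The part of RNA state in these low values was not tested.

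The differences between MMS and each other agent were tested in the same fit. ISU2 was 6.79 ± 0.669 higher with MMS than with bleomycin, 6.45 ± 0.745 higher than with cisplatin, 7.11 ± 0.675 higher than with NaCl and 5.01 ± 0.767 higher than with ethanol (SE, changes against Control). For ISU1 these differences were 5.65 ± 1.4, 6.13 ± 1.56, 8.05 ± 1.41 and 5.65 ± 1.6. Those of ISU1 and ISU2 are given as a description. NFS1 changed more with MMS than with each of the others, by 2.11 ± 0.306 over bleomycin, 2.66 ± 0.341 over cisplatin, 2.86 ± 0.309 over NaCl and 2.06 ± 0.351 over ethanol (limma, SE; largest adjusted p 0.0013). GRX5 did too by its brighter probe set, by 2.41, 2.66, 4.10 and 1.78 in the same order (limma, largest adjusted p 0.0469). The GRX5 difference from ethanol lost its call when any of 17 of the 24 arrays was left out, among them each MMS and each ethanol array (limma adjusted p up to 0.197), and that from cisplatin did so without cisplatin replicate 2 (limma adjusted p = 0.0587). With the ACT1 5′ class in place of day, the NFS1 differences from all 4 agents and the GRX5 differences from all but NaCl did not pass. By the second GRX5 probe set the change was -0.18 with MMS. It was 0.84 with bleomycin, 0.88 with cisplatin, 1.85 with NaCl and 0.45 with ethanol, so all 4 differences changed sign. The difference from NaCl then passed in the opposite direction, and the others did not pass. Pearson's r between the 2 probe sets was -0.712 over the 24 arrays.

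In the difference from bleomycin, 6 of the 9 genes were higher with MMS, as were 25.9% of all genes. The same number were higher in the difference from cisplatin, beside 25.6% of all genes. In the difference from NaCl 7 of the 9 were higher, beside 44.7% of all genes. In that from ethanol 4 were, beside 19.3%: ISU1, ISU2, NFS1 and GRX5. These 4 counts include ISU1 and ISU2, whose MMS values were known when the genes were chosen, and the other genes were also chosen with earlier results known. The other genes counted were NFS1, GRX5 by its brighter probe set, ISA1 and ISA2 over bleomycin and over cisplatin. Over NaCl they were the same genes and NFU1. YFH1 and JAC1 passed in none of the 4, with differences of 0.20 to 1.10 and of -0.16 to 0.31. Without the day term, or with the ACT1 5′ class in its place, 1 gene passed in the difference from bleomycin and 2 in that from cisplatin. Of all genes, 23.8% without the day term and 27.6% with the class passed in the difference from bleomycin, and 18.4% and 19.4% in that from cisplatin, so these counts were near or under the background. Without Control replicate 1 or cisplatin replicate 1, 3 genes passed in the difference from cisplatin. In the difference from ethanol, 2 passed without Control replicate 6, 7 or 9, MMS replicate 3 or either ethanol replicate, and 7 passed without NaCl replicate 1. The shares of all genes in these fits with 1 array left out are not given here, so their counts cannot be set against a background.

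The rest of the pathway was followed through 6 lists, which were also drawn up with earlier results known. Of 6 other mitochondrial assembly genes tested, 2 rose with MMS, near the 33.5% of all genes that were higher. They were IBA57, partner of Isa1 and Isa2, which rose by 2.06 ± 0.244, and ACP1, the acyl carrier protein that stabilises the desulfurase, by 1.16 ± 0.281 (limma, SE; adjusted p = 4.05e-05 and 0.00498). IBA57 had 6.16 to 6.44 on the MMS arrays, against 3.72 to 5.29 on the Control arrays, with no overlap. Its lowest Control value was under the filter limit of 3.786, so the size of its rise is uncertain. Among high ACT1 5′ arrays only, the IBA57 rise was 1.45, and the ACP1 value of 0.03 did not pass (limma adjusted p = 0.875). The ferredoxin gene YAH1, its reductase gene ARH1, and ISD11 and BOL3 did not pass. Both mitochondrial iron carrier genes rose, MRS4 by 3.79 ± 0.304 and MRS3 by 1.71 ± 0.471 (limma, SE; adjusted p = 2.85e-06 and 0.0101), and among high arrays MRS4 was at 2.71 and MRS3 at 0.23, which did not pass (adjusted p = 0.169).

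The cytosolic machinery takes up where the mitochondrial one ends. Of its 11 genes and those of the export step, 6 rose and 2 fell with MMS, with a median of 1.62, beside 33.5% of all genes higher, 17% lower and a median of 0.29. DRE2, an electron donor of the cytosolic pathway, had 9.21 to 9.50 on the MMS arrays, against 4.35 to 6.55 on the Control arrays, and rose by 4.18 ± 0.506. NAR1, which links the early and late cytosolic steps, had 6.91 to 7.09 on the MMS arrays, against 2.67 to 4.79 on the Control arrays, and rose by 4.08 ± 0.309. The Control values of NAR1 reached below the filter limit of 3.786, so the size of its rise is uncertain. CIA1, a subunit of the targeting complex, rose by 2.43 ± 0.48 (limma adjusted p at most 0.00144 for the 3). Among high ACT1 5′ arrays only, the rises of DRE2, NAR1 and CIA1 were 3.04, 2.97 and 1.21, and each passed. FRA1, which acts in signalling of mitochondrial cluster status to the iron regulon, was the 1 gene of 4 in its list to rise, by 3.12 ± 0.218 (limma, SE; adjusted p = 1.37e-06). Of the 5 genes of the mitochondrial Hsp70 system, only the J-protein gene MDJ1 rose, by 1.82 ± 0.244 (limma, SE; adjusted p = 9.78e-05), and none fell.

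Among 12 genes for enzymes that carry clusters, 3 rose and 1 fell with MMS, with a median of 0.58. Neither count was above the share of all genes, 33.5% higher and 17% lower. SDH2, the iron-sulfur subunit of succinate dehydrogenase, rose by 3.82 ± 0.334, and LIP5, lipoate synthase, by 1.75 ± 0.459 (limma, SE; adjusted p = 5.27e-06 and 0.00782). Among high ACT1 5′ arrays only, SDH2 was at 1.29 and LIP5 at 0.54, and with the class as a block LIP5, at 0.58, did not pass (limma adjusted p = 0.249). GLT1, glutamate synthase, fell by 1.71 (SE 0.491; limma adjusted p = 0.0125). Among high ACT1 5′ arrays only, 3 of the 12 were higher and 8 lower, with a median of -0.91. Of the 9 assembly genes, 7 were higher and none lower there, with a median of 0.85. Without ISU1 and ISU2, whose MMS values were known when the genes were chosen, 5 of 7 were higher, with a median of 0.76. Those 7 were also chosen with earlier results of these data known. In that fit 39.3% of all genes were higher and 31.4% lower.

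**Figure D4:**
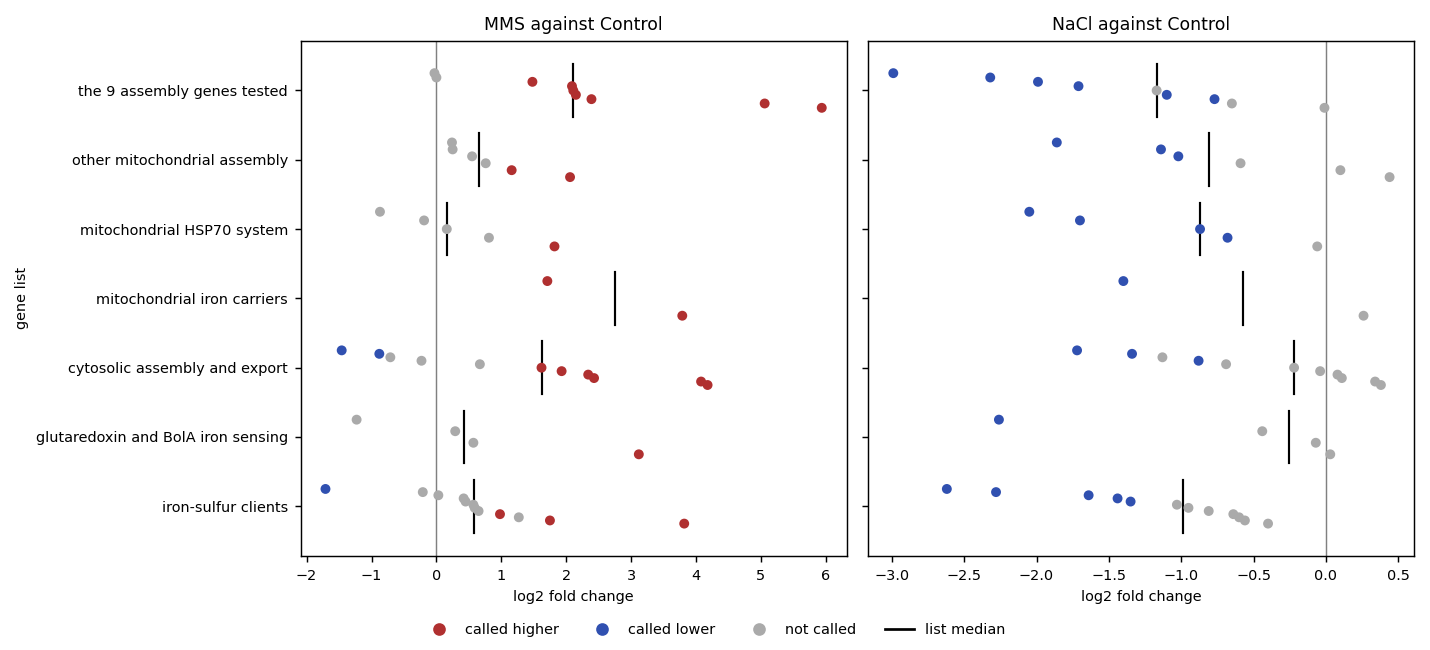
Log2 fold change against Control (horizontal axes) with MMS and with NaCl for each tested gene of the 7 lists (rows); each point is 1 gene, coloured by call, and the bar is the list median. With MMS the assembly genes have a median of 2.11 and the cluster-carrying enzymes 0.58, and with NaCl no gene of these lists was called higher.

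With NaCl no gene of the 6 lists was called higher in the fit with day, and 37.6% of all genes were called lower. Those called lower numbered 3 of 6 other assembly genes, 4 of 5 Hsp70 system genes, 3 of 11 cytosolic and export genes, 5 of 12 enzyme genes, 1 of 4 sensing genes and 1 of 2 carriers, so several lists were near or under that share. With the ACT1 5′ class as a block these counts were 1 of 6, 3 of 5, 3 of 11, 0 of 12, 1 of 4 and 0 of 2, beside 24.4% of all genes. There 1 of the 2 carriers was called higher, beside 10.1% of all genes. In the fit with day the medians of the 6 lists ran from -0.99 to -0.22. With the low ACT1 3′ arrays left aside, which left only NaCl replicate 1, they ran from -0.36 to 0.50. The changes were -2.62 ± 0.818 for ACO1, aconitase, and -2.28 ± 0.323 for SDH2. ISD11, the partner protein of Nfs1, was at -1.86 ± 0.572 (limma, SE, largest adjusted p of these genes 0.0205). The lowest NaCl value of ISD11, 3.61, was under the filter limit of 3.786, so the size of its fall is uncertain. With the low ACT1 3′ arrays left aside, ACO1 was at 0.59 and ISD11 at -0.28, and neither passed, while SDH2 was at -1.50 and did (limma adjusted p = 0.0225). SDH2 was at -0.44 with the ACT1 5′ class as a block and did not pass (limma adjusted p = 0.33). With ethanol, MET18, a subunit of the cytosolic targeting complex, was the only gene of the lists to pass, at 1.21 ± 0.274 (limma, SE; adjusted p = 0.0297), beside 5.03% of all genes. Only the brightest of its 5 probe sets was used. With the low ACT1 3′ arrays left aside, 3 of the 11 cytosolic and export genes were higher with ethanol and 1 lower. Of the 12 enzyme genes, 4 were higher and 2 lower, beside 26.6% of all genes higher and 16.1% lower in that fit. With bleomycin and cisplatin none of these list genes passed in the fit with day, beside 1.86% and 0.464% of all genes.

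Over the 13 same-day differences, the genes most like ISU2 by Pearson's r were CCC2 (0.988), CCS1 (0.986), HRT1 (0.985), CDC25 (0.984) and SSL2 (0.983). Those most like ISU1 were YNR061C (0.991), LST7 (0.987), RPS14A (0.984), SML1 (0.983) and SAM4 (0.982). The 2 sets of 5 share no gene. Within the pathway, r was 0.901 between ISU1 and ISU2, 0.983 between ISA2 and GRX5 and 0.966 between ISA2 and NFU1, while JAC1 ranged between -0.32 and 0.24 with the other genes tested. These r values are descriptions of 13 points that share Control arrays, days and RNA state, and 3 of the points are the MMS arrays.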

How the data were processed

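The authors deposited signals on the log2 scale, running between 1.42 and 14.39. Per the labels' protocols, poly(A)+ RNA was isolated, and biotin-labelled cRNA was made from cDNA primed at the poly(A) end and hybridized to 1-colour arrays. The summary method, normalization and genome build were not given in the sources used here. Precision is limited by how many arrays there were, not by a depth.

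Of 9335 probe sets, 60 were controls, and the other 9275 were quantile-normalized between arrays. Among these, 6504 had 1 gene in the platform annotation, 328 had several and 2443 were unnamed. Symbols of all 6504 were updated by gene ID. Each of 5656 genes was represented by its brightest probe set on average, and the 5171 with a mean above the pooled 20th percentile (3.786) were tested. limma 3.58.1 in R 4.3.3 was fitted to all 24 arrays with 5 agent terms and day as a fixed block (8 residual degrees of freedom), with an eBayes trend. A call needed an adjusted p (Benjamini-Hochberg, over all genes tested) under 0.05. The procedure was tested on simulated data. These had noise scaled below the spread within groups of these arrays, random day shifts and no RNA-state difference. That test therefore does not cover the RNA-state differences seen here. Python 3.11.15 and matplotlib 3.10.9 drew the figures.

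Day pairs come from the titles. Deviations from group means correlated above 0.1 in 6 of 13 treated and Control pairs and below -0.1 in 5, between -0.565 and 0.68, so the labels and not this check carry the pairing.

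The genes, lists and RNA-state classes were chosen with earlier results of these data known. All 10 genes are named, with the 5 genes most like ISU1 and ISU2. For MMS and ethanol up to 3 called genes of each list are named by size of change. For NaCl only ACO1, SDH2 and ISD11 are described above. Other list genes called lower with NaCl, among them BOL2 (-2.26) and MGE1 (-2.05), are not. Some list genes that did not pass are named too. Alternatives changed the normalization, pseudocount, filter, day block, trend, probe set, minimum fold, RNA-state terms and arrays, 1 at a time, except that the fit among high ACT1 5′ arrays also dropped the day term. That fit and the ACT1 5′ covariate were chosen after seeing the data. No sequences were used here.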

Additional observations from a re-analysis of the deposited data

How the results depend on the processing

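Groups of 2 or 3 arrays limit every result, and NaCl and ethanol had no array in the high ACT1 5′ class, so that fit gave them no value. Without the day block, the replicate block of this design, 7 of 9 genes passed for MMS and 4 for NaCl. Day as a random block gave the same counts, and the fixed day block gave 7 and 6. Of all genes, 44.6% without the block, 45.6% with the random block and 50.5% with the fixed block passed for MMS. For NaCl these shares were 41%, 42.4% and 51.7%. With the ACT1 5′ class as the block, 5 passed for MMS and 4 for NaCl, beside 40.2% and 34.5% of all genes. With no day term and with day as a random block, 1 gene passed in MMS minus bleomycin and 2 in MMS minus cisplatin. With the ACT1 5′ class as the block the counts were 1, 2 and, in MMS minus ethanol, 2. Of all genes, 23.8% with no day term and 27.6% with the class passed in MMS minus bleomycin. In MMS minus cisplatin 18.4% and 19.4% did. With the ACT1 5′ signal as a covariate, 2 passed for MMS, 2 for NaCl and 2 in MMS minus bleomycin. Of all genes, 25.3%, 10.7% and 12.8% passed there. In MMS minus cisplatin, NaCl and ethanol, 2, 4 and 2 of the 9 passed with the covariate, and no share of all genes is given here beside these counts. With only the arrays compared, 1 passed for bleomycin, 0 for NaCl and 1 for ethanol, beside 10.1%, 0% and 26.3% of all genes. With low ACT1 3′ arrays aside, 1 passed for bleomycin, 1 for ethanol and 7 in MMS minus ethanol, and NaCl kept only replicate 1. Of all genes, 10.9% passed for bleomycin and 42.7% for ethanol in that fit. Among high arrays 1 passed for bleomycin, beside 19.5% of all genes. With ethanol replicate 1 on its own day 2 passed in MMS minus ethanol. Each array left out in turn gave 6 to 7 for MMS, 2 to 8 for NaCl, 0 to 0 for bleomycin, cisplatin and ethanol, and 5 to 7, 3 to 7, 7 to 8 and 2 to 7 in MMS minus bleomycin, cisplatin, NaCl and ethanol. Of all genes, 36.5% to 64.1% passed for MMS in those fits, 15.8% to 71.8% for NaCl and 24.8% to 53.6% in MMS minus bleomycin. For bleomycin, cisplatin and ethanol the shares were 0.483% to 5.3%, 0% to 6.79% and 0.116% to 25.5%. The shares for MMS minus cisplatin, NaCl and ethanol are not given here, so those counts have no background beside them. Values that reversed were GRX5 with its lower probe set (-0.18 with MMS, 1.85 with NaCl), NFS1 with NaCl in the class fit (0.19), and ISA1 (0.93), ISU1 (1.01) and NFU1 (0.10) with NaCl when low ACT1 3′ arrays were aside. With that lower probe set the GRX5 differences of MMS from each other agent also changed sign. The cause of these shifts was not tested. All other settings kept each count of called genes within 1.5 times.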
